A study of Mus musculus with 6 samples.

Results

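The 10 genes described here encode the Pim kinases (*Pim1*, *Pim2* and *Pim3*) and members of the SOCS family of cytokine feedback inhibitors (*Cish* and *Socs1* to *Socs6*). They were chosen by gene name among the 19752 genes measured on microarrays of mature CD4 SP thymocytes, and all 10 had a value. In cells lacking Jmjd3 and Utx, *Pim1* was 2.36-fold lower and *Cish* was 2.04-fold lower than in wild-type cells, while *Pim2* showed no detectable change and *Pim3* was slightly higher. *Socs1* and *Socs3* were lower by smaller amounts, *Socs4* was slightly lower, and *Socs5* and *Socs6* were slightly higher.

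Cytokine receptors of T-cells signal through JAK kinases, which phosphorylate STAT transcription factors. STAT factors then induce genes that include their own inhibitors. Cish and Socs1 to Socs3 are such feedback inhibitors: they bind phosphorylated receptors or JAK kinases through an SH2 domain and recruit a ubiquitin ligase through a C-terminal SOCS box. Socs4 to Socs6 share this architecture and act mainly outside the classical cytokine feedback loop. Pim kinases are serine/threonine kinases that are active as soon as they are made, so that their amount is set largely by transcription and protein stability, and they promote survival and protein synthesis downstream of cytokine and T-cell antigen receptor (TCR) signals. In the thymus, Socs1 restrains the response of developing cells to interleukin-7 and interferon-γ.

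RNA came from Vα2hi CD24lo CD4 SP thymocytes, sorted from mice with the OT-II transgene, which encodes an MHC II-restricted TCR. The dKO cells carried floxed alleles of *Jmjd3* (*Kdm6b*) and *Utx* (*Kdm6a*), which encode H3K27Me3 demethylases. Both were deleted by Cre under *Cd4* control, which acts from the CD4+CD8+ (DP) stage onward, in T-lineage cells. Cre-negative OT-II mice gave the wild-type cells, and according to the Methods such controls were littermates homozygous for a floxed *Jmjd3* or *Utx* allele. The sample records, which give neither age nor sex, call them wild type, and by the age range and the sex given in the Methods for the study as a whole, mice were young adults and female unless noted otherwise. There were 3 wild-type and 3 dKO arrays, called biological replicates in the records without a statement that each came from a separate mouse. The p-values therefore measure the spread between these samples, and the number of arrays limits their precision. Values are log2 signals after RMA, a procedure that corrects background and equalizes the distribution of signals between arrays.

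Arrays of 1 genotype correlated at 0.998 to 0.999 over all genes and arrays of different genotypes at 0.991 to 0.993, and array medians lay between 6.27 and 6.32. Of the targeted genes, *Kdm6a* was lower by limma (log2 fold change -0.67, SE 0.06, adjusted p = 2.62e-05), and *Kdm6b* was at -0.09 (adjusted p = 0.324). The values of each gene are not resolved to the deleted exons, so they do not measure the deletion itself. Of 6 measured markers of CD4 lineage T-cells, *Cd5* and *Zbtb7b* were lower and 4 did not pass the test. The other 4 were *Cd3e*, *Cd3g*, *Cd3d* and *Cd4*, and each had a mean value above 11 in both genotypes.

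The promoters of the members differ in whether they hold motifs read by factors of the cytokine pathway. Windows of 250 bases before to 50 bases after RefSeq start sites of the GRCm38.p6 assembly were read for 7 of the 10 genes. The others are not reported here. The windows were searched on both strands for TTCNNNGAA, the palindrome bound by STAT dimers, and for a GAAA repeat (GAAA, any 2 bases, GAAA), the core of the element bound by interferon regulatory factors. The 3 windows that hold a match are shown, with that of *Pim1*, the gene with the largest change. Capitals mark the matches, and each sequence runs 5′ to 3′ on the strand of its gene.
Cish: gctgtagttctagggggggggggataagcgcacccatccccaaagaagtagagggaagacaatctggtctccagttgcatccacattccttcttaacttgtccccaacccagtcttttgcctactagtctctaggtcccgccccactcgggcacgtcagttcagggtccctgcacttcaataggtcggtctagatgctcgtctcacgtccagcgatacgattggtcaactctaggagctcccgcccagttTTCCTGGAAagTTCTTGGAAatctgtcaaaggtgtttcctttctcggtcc
Socs1: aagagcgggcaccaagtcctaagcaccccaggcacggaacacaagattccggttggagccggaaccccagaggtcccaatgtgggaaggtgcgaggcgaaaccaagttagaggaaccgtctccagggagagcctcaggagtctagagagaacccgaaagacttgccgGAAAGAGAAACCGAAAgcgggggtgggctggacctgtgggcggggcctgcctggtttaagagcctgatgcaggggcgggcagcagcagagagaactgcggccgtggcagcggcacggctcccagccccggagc
Socs3: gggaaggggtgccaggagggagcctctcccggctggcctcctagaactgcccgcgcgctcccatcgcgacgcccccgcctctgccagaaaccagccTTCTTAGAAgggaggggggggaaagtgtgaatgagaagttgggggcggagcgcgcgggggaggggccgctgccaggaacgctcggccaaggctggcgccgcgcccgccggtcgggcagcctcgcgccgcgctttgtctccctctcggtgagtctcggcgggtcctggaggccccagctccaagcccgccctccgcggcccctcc
Pim1: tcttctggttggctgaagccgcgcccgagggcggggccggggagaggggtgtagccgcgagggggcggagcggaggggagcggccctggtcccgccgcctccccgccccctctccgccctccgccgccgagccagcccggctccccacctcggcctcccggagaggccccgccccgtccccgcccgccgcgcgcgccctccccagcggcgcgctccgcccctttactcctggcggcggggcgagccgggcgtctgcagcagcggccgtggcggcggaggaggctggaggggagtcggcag
The windows are chr9:107296409-107296708 (plus strand) for *Cish*, chr16:10785487-10785786 (minus strand) for *Socs1*, chr11:117969317-117969616 (minus strand) for *Socs3* and chr17:29490535-29490834 (plus strand) for *Pim1*.

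The *Cish* window held 2 matches to TTCNNNGAA, TTCCTGGAA and TTCTTGGAA, which lie at bases 1 to 9 and 12 to 20 from the annotated start. The *Socs3* window held 1, TTCTTAGAA, at bases -154 to -146. In the *Socs1* window, 2 overlapping matches to the GAAA repeat, GAAAGAGAAA and GAAACCGAAA, spanned bases -83 to -68. The other windows (both annotated starts of *Pim1*, and those of *Pim2*, *Pim3* and *Socs4*) held neither motif, which says only that these letters are absent from these windows. Of all 32851 promoter windows of this length, 8.30% held TTCNNNGAA and 0.457% held it at least 2 times, and 3.44% held the GAAA repeat. Of the 81 measured genes with at least 2 matches to TTCNNNGAA, 17.3% fell and 13.6% rose in dKO cells (adjusted p under 0.05). Of the 1386 with at least 1 match, 11.3% fell and 12.6% rose, and of the 601 with the GAAA repeat, 12.1% fell and 10.8% rose. The same shares were 9.91% and 13.6% of all 15483 measured genes with a window, and the differences were not tested. A match describes the sequence and does not show that a factor binds there.

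Among the Pim kinases, *Pim1* alone was lower in dKO cells. Its log2 value was 8.89, 8.82 and 8.68 on the wild-type arrays and 7.46, 7.66 and 7.57 on the dKO arrays. The groups were 1.02 apart at their nearest values, with an SD of 0.11 and 0.10 (n = 3 each). *Pim1* thus changed by -1.24 on the log2 scale (standard error, SE, 0.07, 95% interval -1.39 to -1.08, adjusted p = 1.57e-06 from limma), so that 42.4% of the linear wild-type signal was left. Ordered from the lowest, this change ranked 61 of 19752. In T-cells *Pim1* is induced by cytokines through STAT factors and by TCR engagement, and its product promotes survival and cell cycle entry.

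*Pim2*, which encodes a kinase that sustains survival when growth factor signals through mTOR are blocked, had log2 values of 9.40, 9.28 and 9.24 in wild-type and 9.41, 9.37 and 9.25 in dKO cells. The groups overlapped. A change of 0.03 did not pass the test (adjusted p = 0.775), and its 95% interval ran from -0.10 to 0.17, which leaves out a decrease of the size seen for *Pim1*. It turned to -0.01 after cyclic loess normalization and to just under 0 without wild-type replicate 3 or without dKO replicate 1.

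*Pim3*, the third kinase of the family, had log2 values of 8.16, 8.10 and 8.01 in wild-type and 8.26, 8.32 and 8.37 in dKO cells. All dKO arrays were higher, by at least 0.09. Its change was 0.22 on the log2 scale (SE 0.06, adjusted p = 0.0147 from limma). Leaving out wild-type replicate 3 ended the call (adjusted p = 0.0504), as did leaving out dKO replicate 2 (0.0515) or dKO replicate 3 (0.0528).

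The signed log2 change of *Pim1* minus that of *Pim2* was -1.27 (SE 0.09), and minus that of *Pim3*, which moved the other way, it was -1.46 (SE 0.05), each computed from the difference between the genes on the same array. Changes were compared for 9 pairs, 3 among the Pim kinases and 6 among *Cish* and *Socs1* to *Socs3*, by a two-sided exact permutation test over the 6 arrays. For 8 pairs, these among them, the arrays of the genotypes did not overlap and p was 0.1 (0.112 adjusted over the 9 pairs), the smallest value that 3 arrays against 3 allow. This test therefore cannot bring such a difference under 0.05 with these arrays.

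**Figure D1:**
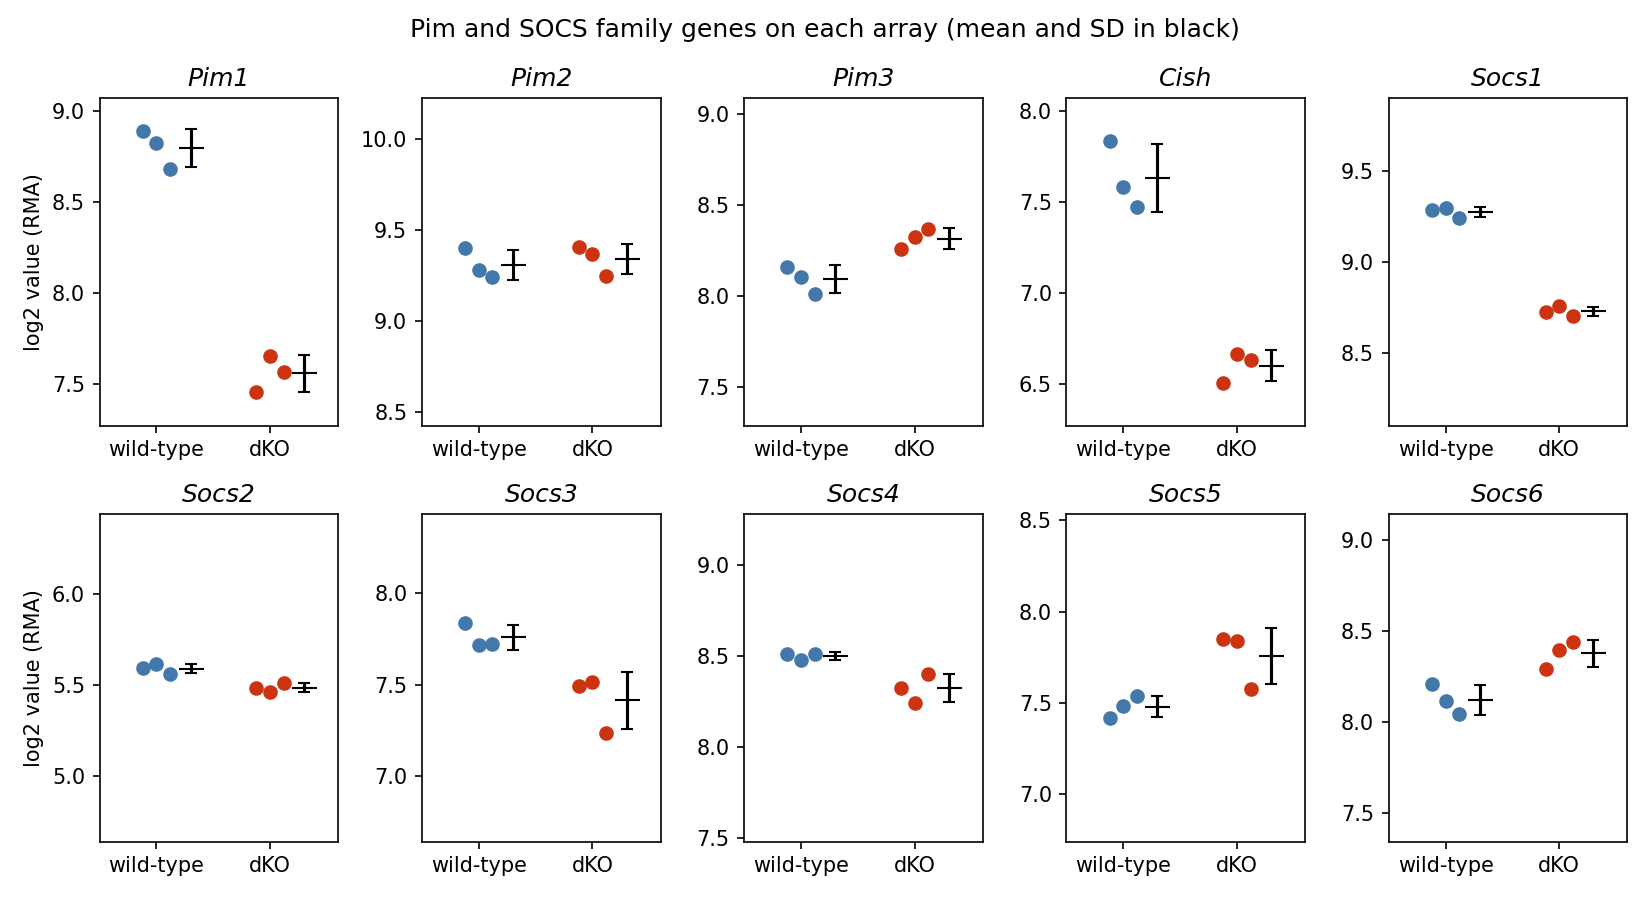
Log2 value (vertical axis, RMA) of each Pim and SOCS gene on the 3 wild-type arrays (blue) and the 3 dKO arrays (red), with the mean and SD in black. All panels span 1.8 log2 units, so distances can be compared between genes but the positions of the axes cannot, and only *Pim2* shows overlapping genotypes.

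Of the feedback inhibitors, *Cish* showed the largest decrease. Cish is induced by STAT5 downstream of interleukin-2 and interleukin-7 and restrains cytokine and TCR signals. Its log2 value was 7.84, 7.58 and 7.47 in wild-type and 6.50, 6.66 and 6.63 in dKO cells. The genotypes were 0.81 apart at their nearest values, with SDs of 0.19 among wild-type and 0.08 among dKO arrays. *Cish* changed by -1.03 on the log2 scale (SE 0.09, 95% interval -1.22 to -0.84, adjusted p = 2.57e-05 from limma), and 49.0% of the wild-type value was left.

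*Socs1*, whose product inhibits JAK kinases directly, had log2 values of 9.29, 9.30 and 9.25 in wild-type and 8.73, 8.76 and 8.71 in dKO cells. The arrays of a genotype lay very close together (SD 0.03 in each). Its change was -0.55 on the log2 scale (SE 0.04, 95% interval -0.65 to -0.45, adjusted p = 2.14e-05 from limma). This left 68.5% of the linear wild-type signal.

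*Socs3*, encoding the inhibitor of receptors that use gp130, such as the interleukin-6 receptor, had log2 values of 7.84, 7.72 and 7.72 in wild-type and 7.49, 7.51 and 7.23 in dKO cells. The dKO replicate 3 array was the lowest, and the genotypes did not overlap. *Socs3* changed by -0.35 (SE 0.08, adjusted p = 0.00836 from limma), and 78.6% of the wild-type value was left. A dimmer row of the same gene gave -0.35 as well (adjusted p = 0.00366 over all rows of the table).

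*Socs2*, encoding a STAT5-induced inhibitor of growth hormone signalling that also acts in T-cells, had log2 values of 5.59, 5.62 and 5.56 in wild-type and 5.48, 5.46 and 5.51 in dKO cells. These values lie below the median of the arrays. The genotypes did not overlap but were only 0.05 apart. A change of -0.10 (95% interval -0.20 to -0.00) did not pass the test over all genes (adjusted p = 0.132 from limma). A still dimmer row gave -0.31 (adjusted p = 0.0303 over all rows), and the mean of both rows gave -0.21 and a call (adjusted p = 0.0272).

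Within this group the log2 change of *Cish* minus that of *Socs1* was -0.48 (SE 0.11), minus that of *Socs3* -0.68 (SE 0.13) and minus that of *Socs2* -0.93 (SE 0.12). For *Socs1* minus *Socs2* it was -0.44 (SE 0.03). For *Socs1* minus *Socs3* the arrays of the genotypes overlapped, with a difference of -0.20 (SE 0.09, exact permutation p = 0.2). With 3 arrays against 3 this test cannot go under 0.1, so it does not decide whether *Socs3* changed less than *Socs1*.

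*Socs4*, *Socs5* and *Socs6* changed little and in both directions. A small change was not particular to them, as *Socs2* was at -0.10 in its brightest row and *Pim2* at 0.03. *Socs4* and *Socs5* encode related proteins linked to the control of epidermal growth factor receptor signalling. *Socs4* had log2 values of 8.51, 8.48 and 8.51 in wild-type and 8.33, 8.24 and 8.40 in dKO cells. All dKO arrays were lower, and the change was -0.18 (SE 0.05, adjusted p = 0.0353 from limma). The call did not hold without any 1 of the 3 wild-type arrays (adjusted p = 0.0782 to 0.0867), without dKO replicate 1 (0.0776) and without dKO replicate 2 (0.13).

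*Socs5* had log2 values of 7.42, 7.48 and 7.54 in wild-type and 7.85, 7.84 and 7.58 in dKO cells. The dKO replicate 3 array lay close to the wild-type arrays, 0.04 above the highest of them. *Socs5* changed by 0.28 (SE 0.07, adjusted p = 0.0229 from limma), and by 0.37 without that array (adjusted p = 0.00227). Any 1 of 4 other arrays decided the call: left out, wild-type replicate 1 gave an adjusted p of 0.0739, wild-type replicate 2 of 0.0657, dKO replicate 1 of 0.0854 and dKO replicate 2 of 0.0929.

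*Socs6*, whose product binds the receptor tyrosine kinase Kit and the TCR-proximal kinase Lck, had log2 values of 8.21, 8.12 and 8.04 in wild-type and 8.29, 8.40 and 8.44 in dKO cells. All dKO arrays were higher. *Socs6* changed by 0.25 (SE 0.06, adjusted p = 0.0115 from limma). Its dimmer rows gave 0.11 and 0.08 and did not pass the test (adjusted p = 0.16 and 0.407 over all rows), and the mean of the 3 rows lost the call (0.15, adjusted p = 0.0643).

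In all, 5 of the 10 genes were lower, 3 were higher and 2 did not pass the test. Among all 19752 genes, 10% were lower, 13.1% were higher and together 23.1% were called at this threshold. These shares include dim genes, whereas of the members only *Socs2* lay below the array median. Fitted alone, the brightest 50% of genes gave 1887 lower and 2634 higher of 9876. A decrease of 2-fold or more was called for *Pim1* and *Cish* here and for 0.582% of all genes. The genotypes did not overlap for 9 of the 10 members, against 37.7% of all genes, dim ones included. In the median, the 10 genes changed by -0.14 and all genes by 0.01 (log2).

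**Figure D2:**
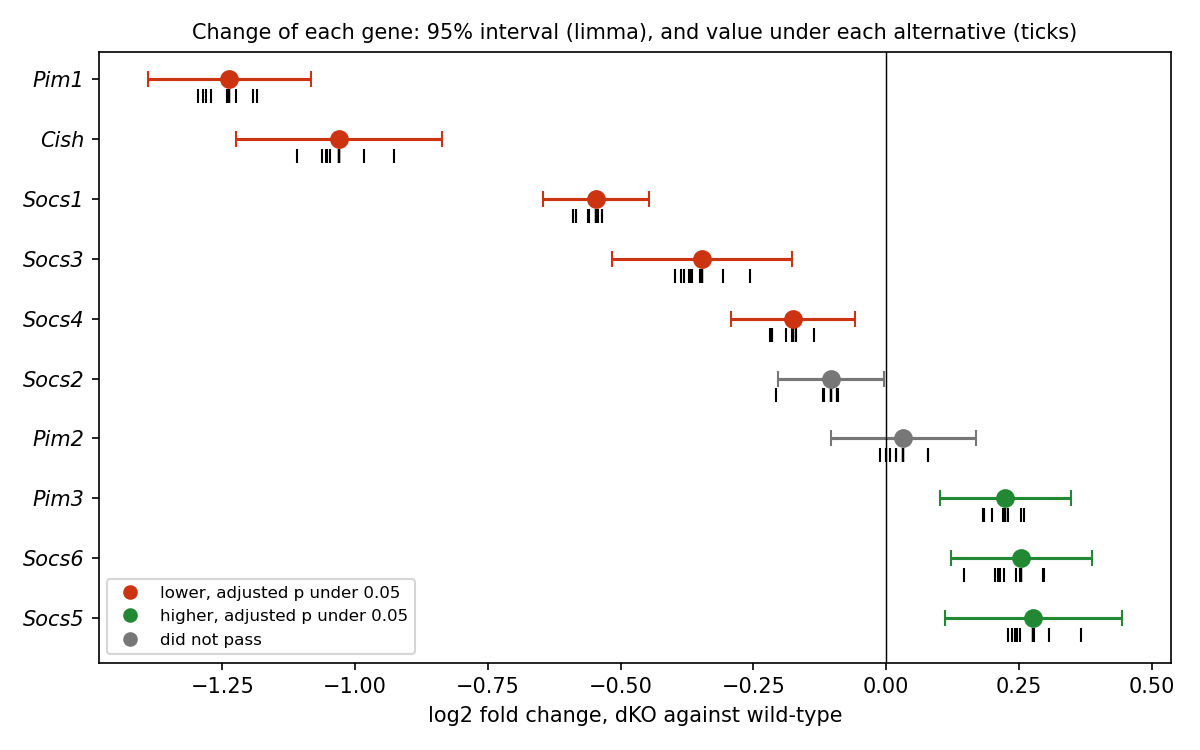
Log2 fold change (horizontal axis, dKO against wild-type) of each of the 10 genes with its 95% interval from limma, with red for lower, green for higher and grey for genes over an adjusted p of 0.05, and black ticks for the value under each alternative processing. The intervals of *Pim1*, *Cish* and *Socs1* end at -0.45 or lower, and those of the other genes lie between -0.52 and 0.44.

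Across arrays, the genes whose profiles lay nearest to that of *Pim1* were *Tnfaip8l1*, *Eya2* and *Aqp9*. Clone-like symbols, ending in Rik or starting with Gm and a number, were left out of this search. Likeness was measured as the Euclidean distance between the 6 log2 values after each gene was centred on its own mean, and it was 0.08, 0.16 and 0.16 for these genes (Pearson's r over the 6 arrays 0.999, 0.996 and 0.998). *Eya2* encodes a transcriptional cofactor and phosphatase, and *Aqp9* a water and glycerol channel. For *Cish*, the nearest were *Slc17a9*, encoding a vesicular nucleotide transporter (distance 0.12), *Emc9* (0.14) and *Smad7* (0.19). *Smad7* encodes the feedback inhibitor of TGF-β signalling and fell by 1.05 in log2 units (limma, adjusted p = 1.57e-06), from 10.10 to 9.05. All these genes share a step between genotypes, and the points of each correlation are the same 6 arrays. They were picked for closeness on these arrays, so a high r follows from the choice.

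**Figure D3:**
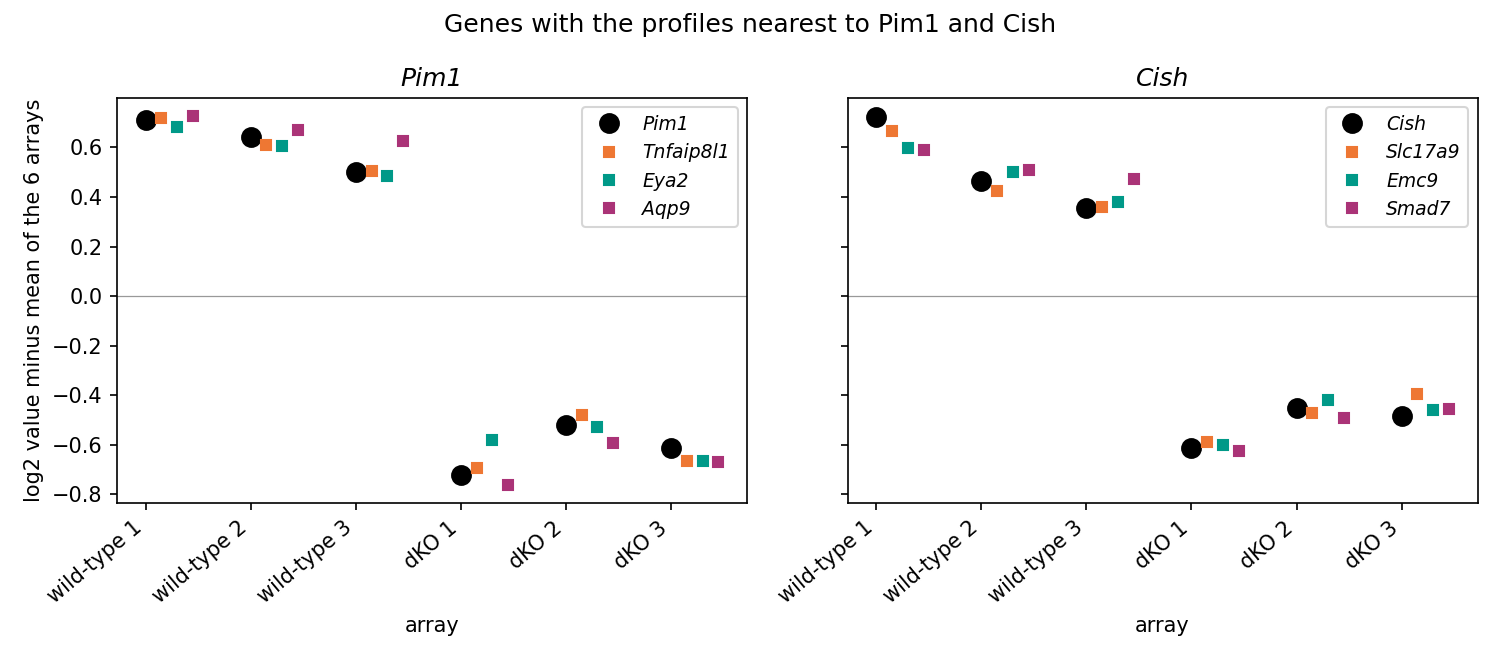
Log2 value minus the gene's mean over the 6 arrays (vertical axis) on each array (horizontal axis), for *Pim1* (left) and *Cish* (right) in black and the 3 genes nearest to each in colour. Every plotted gene is above 0 on the wild-type arrays and below 0 on the dKO arrays.

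Cytokine receptors stand at the head of this loop. Of 22 measured chains of JAK-coupled cytokine receptors, 12 were lower, 3 were higher and 7 passed in neither direction, with a median log2 fold change of -0.24. *Il9r*, *Il12rb2*, *Lifr*, *Osmr* and *Csf2rb* lay below the array median, and among these dim chains only *Il12rb2* passed. Among all genes 10% were lower and 13.1% were higher, shares that also stand beside the counts of the lists that follow. The lower chains with the smallest p were *Il10ra* (-2.80, adjusted p = 1.4e-06), *Il6ra* (-0.97, adjusted p = 5.86e-06), the ligand-binding chain that signals with gp130, and *Ifngr1* (-0.77, adjusted p = 6.64e-06), which binds interferon-γ. The 3 that were higher were *Il4ra* at 0.52 (adjusted p = 3.92e-05 from limma), *Crlf2*, a chain of the TSLP receptor, at 0.33 (not called without shared spread between genes, adjusted p = 0.0848) and *Il7r* at 0.20, a call lost without wild-type replicate 2 (adjusted p = 0.0642). *Il2ra*, the high-affinity chain of the interleukin-2 receptor and itself a STAT5-induced gene, had log2 values of 8.96, 8.95 and 8.96 in wild-type and 8.51, 7.89 and 7.64 in dKO cells. Its wild-type arrays lay within 0.02 of each other and its dKO arrays were widely spread (log2 fold change -0.95, adjusted p = 0.0029 from limma).

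Between receptor and nucleus stand the JAK kinases and STAT factors. Of 9 measured JAK and STAT genes, 3 were lower, 1 was higher and 5 passed in neither direction. *Stat4*, the factor activated by interleukin-12, fell by 1.18 in log2 units (limma, adjusted p = 1.27e-05). *Stat2* fell by 0.23 and *Tyk2* by 0.20, and *Stat6*, which serves the interleukin-4 receptor, was higher at 0.17. *Stat2* was not called in a test without shared spread (adjusted p = 0.0787). The calls on *Tyk2* and *Stat6* were each lost without single arrays (highest adjusted p of 0.101 and 0.0749, both without dKO replicate 2). The factors closest to *Pim1* and *Cish*, *Stat5a* and *Stat5b*, had log2 fold changes of 0.02 (95% interval -0.08 to 0.12) and -0.07 (-0.17 to 0.03), and *Stat3* one of -0.03 (-0.14 to 0.08). *Jak1* and *Jak2* were at -0.01 and 0.00. The array measures transcripts and not phosphorylation, so the activity of these factors was not measured. The signs of *Jak1*, *Jak2* and *Stat5a* turned under some alternatives.

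Of 17 measured genes that cytokines induce through STAT factors, apart from the members, 9 were lower, 1 was higher and 7 passed in neither direction, with a median log2 fold change of -0.36. Those with the smallest p were *Ccnd2*, encoding cyclin D2 (-2.85), *Bcl2l1* (-0.78) and *Bcl2* (-1.10), which encode inhibitors of apoptosis, and *Lta*, encoding lymphotoxin-α, the gene that was higher (0.58). Their largest adjusted p was 5.5e-05, that of *Lta*. *Irf1*, an interferon-γ target, fell by 0.41 (adjusted p = 0.00316). *Myc*, named after its value was seen, was at 0.06 in log2 units (adjusted p = 0.475).

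Of 14 measured restraints on cytokine signalling of other families, 3 were lower and 11 did not pass the test, *Socs7* among them (0.07). Over all genes, 23.1% were called in either direction. Those lower were the ubiquitin ligase genes *Cblb* (-0.28, adjusted p = 0.005) and *Cbl* (-0.28, adjusted p = 0.00656) and the phosphatase gene *Ptpn1* (-0.18, adjusted p = 0.0173, a call lost without wild-type replicate 2 or 3 or dKO replicate 2). In a test that does not share the spread between genes, *Cblb* and *Cbl* were not called (adjusted p = 0.0545 and 0.071). *Ptpn2* was at -0.14 (adjusted p = 0.0618), and passed under 5 of the 15 alternatives, with -0.36 for the mean of its rows (adjusted p = 0.000532). None of the 8 genes listed as ubiquitin ligase partners of the SOCS box passed in limma (2 had an unadjusted p under 0.05, *Ube2f* at -0.12 and *Cul5* at -0.13). *Cul5*, encoding the scaffold of the ligase that the SOCS box recruits, passed after a second quantile or a cyclic loess normalization (adjusted p = 0.046 and 0.0466).

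Of 14 measured Pim substrates and parallel survival kinases, 5 were lower, 3 were higher and 6 passed in neither direction, with a median of 0.01. *Map3k5*, encoding the stress kinase Ask1, fell by 1.63 in log2 units (limma, adjusted p = 9.39e-08), *Sgk1*, a kinase gene related to *Akt1*, by 1.11 and *Foxo1* by 0.94. *Nfatc1* fell by 0.29, and *Cdc25c* by 0.22 at values below the array median, a call lost under 7 alternatives. The genes that were higher were *Cxcr4*, encoding a chemokine receptor (0.93), *Eif4ebp1*, encoding the translational repressor 4E-BP1 (0.45), and *Cdkn1b*, encoding the cell cycle inhibitor p27 (0.22). The largest adjusted p among these 3 was 0.0048, and *Eif4ebp1* was not called without shared spread (adjusted p = 0.0585).

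**Figure D4:**
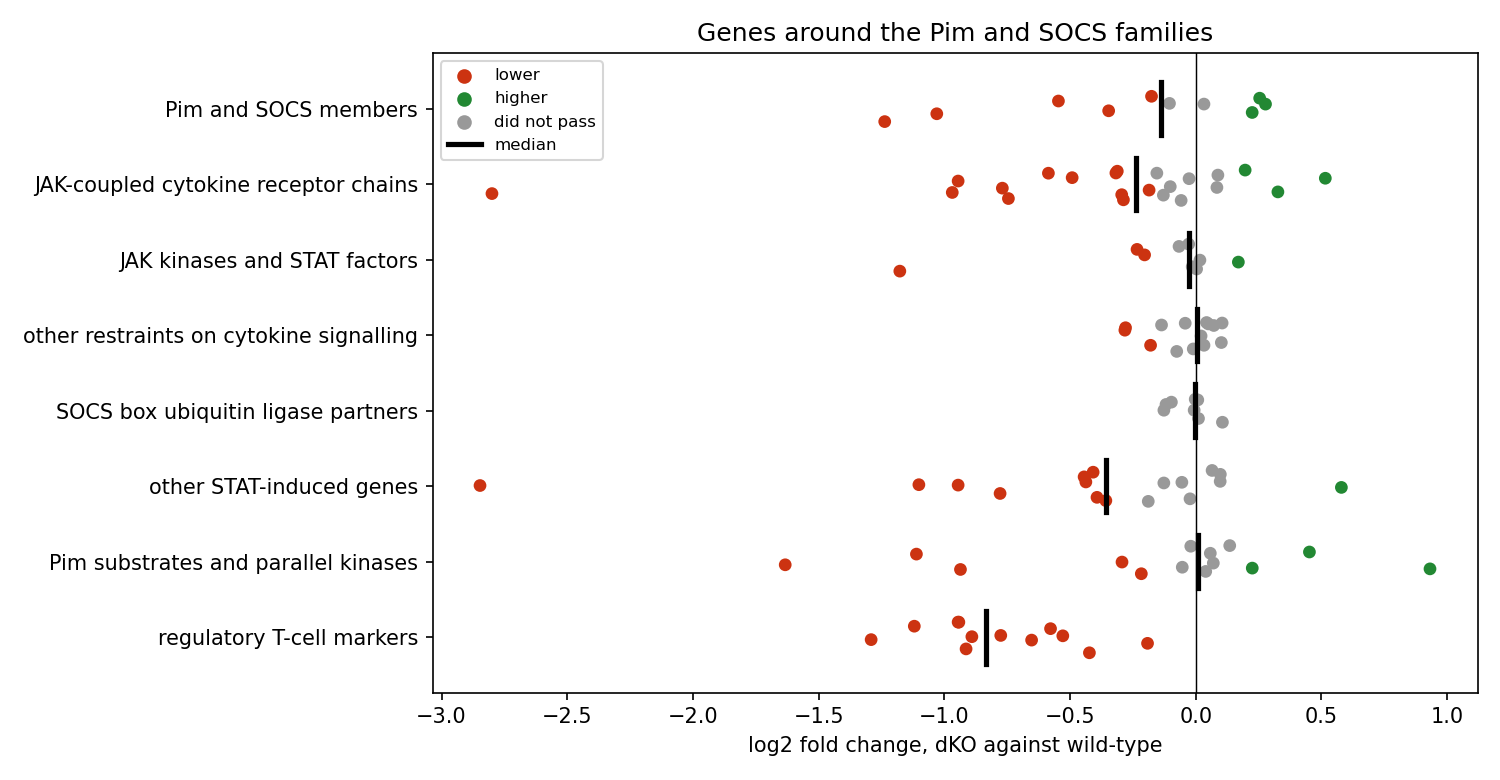
Log2 fold change (horizontal axis, dKO against wild-type) of each measured gene of 8 lists (rows), with red for lower, green for higher and grey for genes over an adjusted p of 0.05 from limma, black bars for medians and a vertical spread only for legibility. Medians lie at -0.83 for regulatory T-cell markers, -0.36 for other STAT-induced genes, -0.24 for receptor chains and near 0 for JAK and STAT genes and for the ubiquitin ligase partners.

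Among the lists of markers of other cells that the sort could hold, only that of regulatory T-cells was lower throughout. All 12 measured markers of regulatory T-cells, which depend on interleukin-2, were lower in dKO cells, with a median log2 fold change of -0.83. Their summed linear signal was 4627 to 4714 on the wild-type arrays and 2644 to 2840 on the dKO arrays. *Foxp3*, which defines this lineage, fell from 7.72 to 6.83, both above the array median, and of the 12 markers *Ctla4* and *Lrrc32* lay below it in their mean over the 6 arrays. *Il2ra* is 1 of these markers and also counts among the receptor chains and the STAT-induced genes. The part of these cells in the decreases of *Pim1*, *Cish*, *Socs1* and *Socs3* was not tested, and in RNA of a sorted population fewer cells of a type cannot be told apart from less RNA per cell.

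Of 7 markers of DP thymocytes, *Dntt* (log2 fold change 1.52), *Cd8b1* (0.54) and *Cd1d1* (0.44) were higher and *Rag1* (-0.55) was lower. *Cd8a* (-0.17), *Ptcra* (0.07) and *Rag2* (0.13) did not pass the test. The summed linear signal of the 7, to which bright genes add most, was 1555 to 1803 in wild-type and 2403 to 2646 in dKO cells. Of 4 measured markers of dividing cells, *Mki67* and *Top2a* were lower (286 to 355 and 228 to 281). Of 8 myeloid and dendritic markers, *Itgam* and *Cd68* were lower and *Lyz2* was higher, with sums of 500 to 566 and 485 to 743, and 5 lay below the array median. *Lyz2* was at 6.75 on dKO replicate 1 but at 6.02 and 5.48 on the other dKO arrays, against 5.03 to 5.43 in wild-type. *Cd74* (7.73) and *H2-Ab1* (7.27), which did not pass the test, were also highest on dKO replicate 1. B-cell markers (*Cd79b* lower of 5), NKT-cell markers (*Il2rb* lower of 6) and thymic epithelial markers (*Epcam* higher of 5) had 4, 5 and 4 genes below the array median. By the Methods, CD4 SP thymocytes were enriched through removal of other cells before the sort on TCR and CD24. How many DP, B, myeloid or epithelial cells remained was not measured here. Their part in the changes of the Pim and SOCS genes was not tested either.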

How the data were processed

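RNA of sorted mature CD4 SP thymocytes was hybridized by the authors to Affymetrix Mouse Gene 1.0 ST arrays, as the Methods and the row annotation state, although the design text names an exon array. The authors deposited log2 values. Partek and RMA are named in the submitters' processing notes, without versions. RMA equalizes the arrays, which conceals a shift common to most genes, and differences between dim values are compressed.

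Of 25254 rows, 21496 had 1 gene symbol in the array annotation, and 21415 of these were found in a RefSeq gene table, whose symbol was then used. The brightest row by mean was kept, which left 19752 genes. limma 3.58.1 in R 4.3.3 was fitted to all genes with genotype as the only term and Benjamini-Hochberg adjustment (threshold 0.05), without a filter on dim genes. Some genes of the lists are not analysed here. The procedure was tested on simulated data. Pairs of paralogs were compared by exact permutation with scipy 1.17.1. The members, gene lists and tests were chosen with earlier results of these data known. All 10 members were to be named, with up to 4 genes of each list by smallest p, each gene of a count of 5 or fewer, and the 3 profiles nearest to a member changed by 2-fold or more. *Il2ra*, *Irf1*, *Myc*, *Socs7* and *Foxp3* were picked for mention once their values were known.

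The alternatives repeated the quantile normalization or applied cyclic loess, kept the brightest 75% or 50% of genes, averaged the rows of a gene, fitted all rows of the table, let the variance follow intensity with robust estimation, replaced limma by Student's test, added the replicate number as a block, or left out single arrays.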

Additional observations from a re-analysis of the deposited data

How the results depend on the processing

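*Pim1*, *Cish* and *Socs1* were called lower under all 15 alternatives, with log2 fold changes of -1.30 to -1.19, -1.11 to -0.93 and -0.59 to -0.53 and a highest adjusted p of 0.0186, that of *Cish* in Student's t-test. *Socs3* lost its call in that test alone (adjusted p = 0.11). Student's t-test, which does not share the spread between genes, called 3 members lower and 0 higher, 0 of the listed ligase partners of the SOCS box, and 1173 genes lower and 1392 higher. It also ended the calls on *Cblb* (adjusted p = 0.0545), *Cbl* (0.071), *Stat2* (0.0787), *Tyk2* (0.123), *Crlf2* (0.0848), *Eif4ebp1* (0.0585) and *Cdc25c* (0.159). With 1 array left out, 4 to 5 members were lower and 1 to 2 were higher, and only 1 was higher without dKO replicate 2. Over all genes 1496 to 1855 were then lower and 1901 to 2259 higher. The small changes of *Pim3*, *Socs4*, *Socs5* and *Socs6* each lost the call under 4, 6, 5 and 2 alternatives without a change of sign. *Pim2* turned to -0.0117 after cyclic loess normalization, to -0.0005 when wild-type replicate 3 was left out and to -0.0004 when dKO replicate 1 was, and ranged up to 0.079 with 1 array left out. *Stat5a* turned to -0.0294 (cyclic loess) and -0.001 (without dKO replicate 1; up to 0.0333 with other arrays left out), *Jak1* to 0.0046 (without dKO replicate 2; down to -0.046 with others left out), and *Jak2* to -0.0248 (quantile), -0.0412 (cyclic loess), -0.0123 (without wild-type replicate 1) and, at the lowest, -0.0441 (without dKO replicate 3; up to 0.0415 with others left out). For these the cause was not tested. Differences between paralogs kept their sign for all 9 pairs under the alternatives run on them. *Socs2* could not be fitted among the brightest 50% of genes.

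Deviations of same-numbered arrays from their group means correlated at 0.0993, 0.0243 and 0.0697, and 5 of 6 arrays correlated best with their own number. The numbers were nevertheless not taken as pairs in the main fit. With the replicate number as a block, 4544 genes were called against 4563, and no call on a member changed.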
